A study of Arabidopsis thaliana and Zea mays with 36 samples.

Results

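In maize leaves, 539 circular RNAs of at most 1000 bp came from a host gene with no other circular RNA in the maize table. They are 539 of the 2174 circular RNAs in that table. They were chosen by length and by a host gene that occurs once there, not by the size of any value. Each was above 0 in at least 1 group, so the choice depends on what was detected. A circular RNA (circRNA) forms when a splice donor is joined to an acceptor that lies upstream of it, so that the RNA has no free end. RNase R, an exonuclease that digests from a free end, removes most linear RNA and leaves circles. The same gene also gives linear RNA, so a circRNA can be read beside the linear RNA of its host. Of the 539, 10 overlapped another circRNA of the table.

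All libraries came from the third leaf of the B73 inbred line at the V4 stage. Plants were either well watered (WW) or held at 1 of 3 drought levels called DT2, DT3 and DT4, with treatment starting 16 days after planting and leaves of at least 2 plants pooled per library. Each of the 4 groups had 2 biological replicates of each library type, RNase R digested (circular) and undigested (linear). Reads were 150 bp, paired-end. The columns do not show which circular and linear library share an RNA, so any such pairing was not used in the tests. The labels do not tie DT2, DT3 and DT4 to soil moisture values. The files pair no gene ID with a gene name, so the hosts carry no stated function below, and leaf marker genes were not checked.

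Within each circular library all values were whole multiples of a step (tolerance 0.02 of a step), and the smallest above 0 was 2 steps. No source used here says what a step stands for. The libraries held 15260 to 23926 steps over all circRNAs. Zeros always came in pairs, shared by both libraries of a group (3869 pairs and 0 single zeros), so "listed" below means above 0 in both libraries. Depth, and a minimum applied before deposit, can therefore set whether a circRNA of few steps is listed. Log2 values of the 2 libraries of a group correlated at 0.840 to 0.861 over the listed short circRNAs, against 0.966 to 0.978 for linear genes. The 2 libraries of a group were not copies of each other: with steps taken as counts, they gave a chi-square per degree of freedom of 1.25 to 1.46.

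The short circRNAs ran from 138 to 999 bp, with quartiles at 375, 541 and 744.5 bp. Exons gave 518 of them (96.1%) and introns 21 (3.9%). On the plus strand lay 302 and on the minus strand 237. All but 2 mapped to chromosomes 1 to 10, with 36 on chromosome 10 and 91 on chromosome 1. The exceptions were GRMZM5G856777_C1 on the chloroplast genome (Pt:11011-11171) and GRMZM6G781015_C1 on scaffold_58. Locations are those of the maize table, and the submitters' processing notes name B73 RefGen_v3 as the maize build. The shortest was GRMZM2G312365_C1, an intronic circle of 138 bp, followed by GRMZM2G167387_C1 (139 bp) and GRMZM2G032266_C1 (146 bp). Just inside the length limit were GRMZM2G058310_C1 (999 bp), GRMZM2G171031_C1 (997 bp) and GRMZM2G066578_C1 (994 bp). Just outside it were GRMZM2G057778_C1 (1001 bp), GRMZM2G395842_C1 (1005 bp) and GRMZM5G828581_C1 (1008 bp). Length and mean level had a Spearman rho of -0.02 across the 539 circRNAs, and the mean level of a circRNA and the mean TPM of its host had a rho of -0.01. Both are descriptions across genes, which are not independent replicates.

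Their hosts stood above the typical tested gene. All 539 hosts were in the linear table, and 527 passed the filter of at least 1 TPM, a level per transcript length and library total, in 2 or more libraries. The median host stood at 25.4 TPM over the 8 linear libraries, against 13.1 TPM for all genes that passed the filter. Of the hosts, 33% had 1 deposited transcript, against 52% of the tested genes.

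More circRNAs were listed under drought, among the short ones and in the whole table. WW listed 234 of the short circRNAs (43.4%), DT2 304 (56.4%), DT3 282 (52.3%) and DT4 356 (66.0%). Of all 2174 circRNAs, WW listed 954, DT2 1199, DT3 1223 and DT4 1451. The other circRNAs of the table were listed at similar shares in DT4, 66.4% of the 384 longer circRNAs of hosts with 1 circRNA, 69.0% of the 794 from hosts with several, and 63.9% of the 457 with no host. Total steps were likewise lowest in WW (15572.5 on average) and highest in DT4 (23072.5), and the part of depth in the lists was not tested. A change of a leaf's RNA in bulk cannot tell fewer cells of a type from less RNA per cell.

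All 4 groups listed 105 short circRNAs (19.5%), and they listed 447 of all 2174 circRNAs. A single group listed 221 short circRNAs (41.0%), a count with no share of all circRNAs given beside it. The largest of these single-group lists was DT4, with 91, followed by DT2 with 50, DT3 with 47 and WW with 33. A further 44 were listed at every drought level and at 0 in WW. Circles of 1 group and of all 4 groups were alike in length and in host level. The median length was 532 bp for those in 1 group and 531 bp for those in all 4, and the median host TPM was 24.2 and 25.7.

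**Figure D1:**
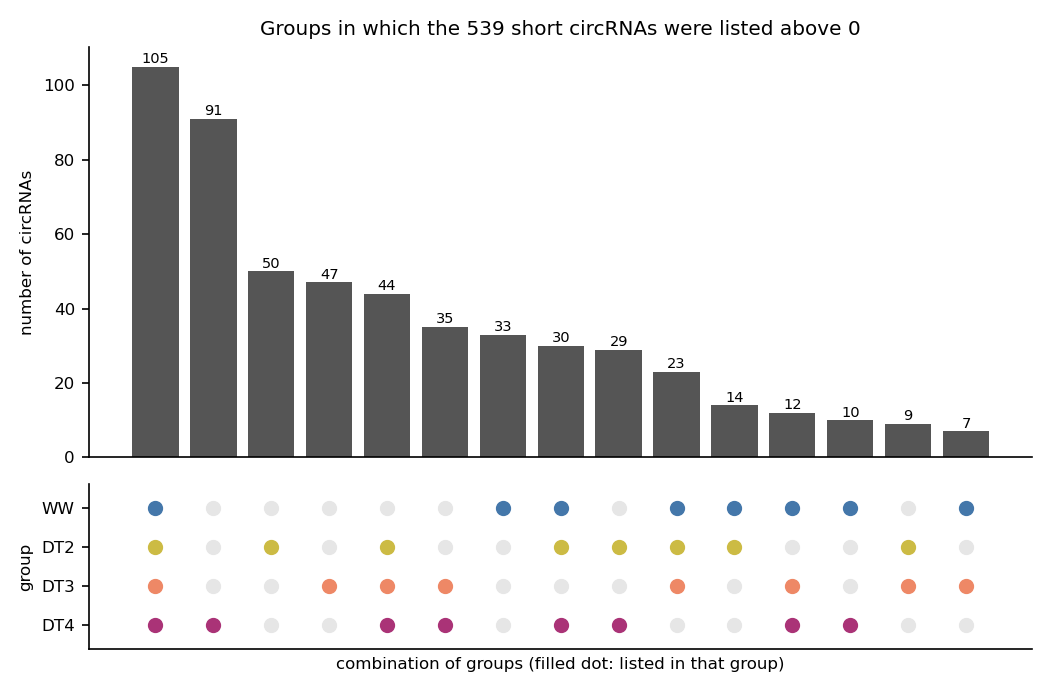
Number of short circRNAs (y axis) for each of the 15 combinations of groups in which they were listed above 0, with filled dots under each bar naming the groups. The 2 tallest bars are the 105 circRNAs listed in all 4 groups and the 91 listed in DT4 only.

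Whether a circRNA was listed in DT4 or in WW went with the direction of its host's linear RNA. Where the circRNA was listed in DT4 and not in WW, 102 of 199 tested hosts rose (51.3%) and 27 fell (13.6%) from WW to DT4, with a median log2 change of 0.56. Where it was listed in WW and not in DT4, 14 of 74 hosts rose (18.9%) and 33 fell (44.6%), with a median of -0.38. Of all 22216 genes tested, 34.8% rose and 18.5% fell in that comparison (limma's moderated test, adjusted p under 0.05 by the Benjamini-Hochberg method). Circles listed in both groups had 58 of 151 hosts that rose and 43 that fell, and circles listed in neither had 38 of 103 that rose and 18 that fell. Each set is described by its counts, and no test was made between the sets. With TPM rescaled by a trimmed mean, the shares were 39.7% higher and 17.1% lower for circles listed in DT4 only of the pair, and 13.5% and 50.0% for those listed in WW only of the pair. With 1 linear library left out, 39.2% to 45.2% rose and 10.6% to 13.6% fell in the first set, and 13.5% to 17.6% rose and 33.8% to 47.3% fell in the second. In the longer circRNAs of hosts with 1 circRNA the shares were 41.8% higher and 9.8% lower for circles gained in DT4, and 30.4% and 23.9% for circles lost.

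At the milder levels fewer genes were called in all, 20.7% higher and 6.81% lower at DT3, and 2.04% and 0.221% at DT2. From WW to DT3, 39 of 135 hosts of newly listed circles rose (28.9%) and 7 fell (5.19%), and 16 of 82 hosts of circles no longer listed rose (19.5%) and 11 fell (13.4%). From WW to DT2, 10 of 129 hosts of newly listed circles rose and 1 fell, and 1 of 59 hosts of circles no longer listed rose. The 19 host calls at DT2 became 0 to 2 without any 1 of the 4 linear libraries compared. These comparisons share the WW libraries.

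Circles listed in 1 of the 2 groups had a lower median of steps than those listed in both. Of the 199 listed in DT4 and not in WW, 89 had at most 8 steps over both DT4 libraries, the median was 9 steps and the highest 89. Of the 77 listed in WW and not in DT4 (74 with a tested host), 41 had at most 8 steps, the median was 8 and the highest 297. The circles listed in both groups had a median of 25 steps in DT4.

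**Figure D2:**
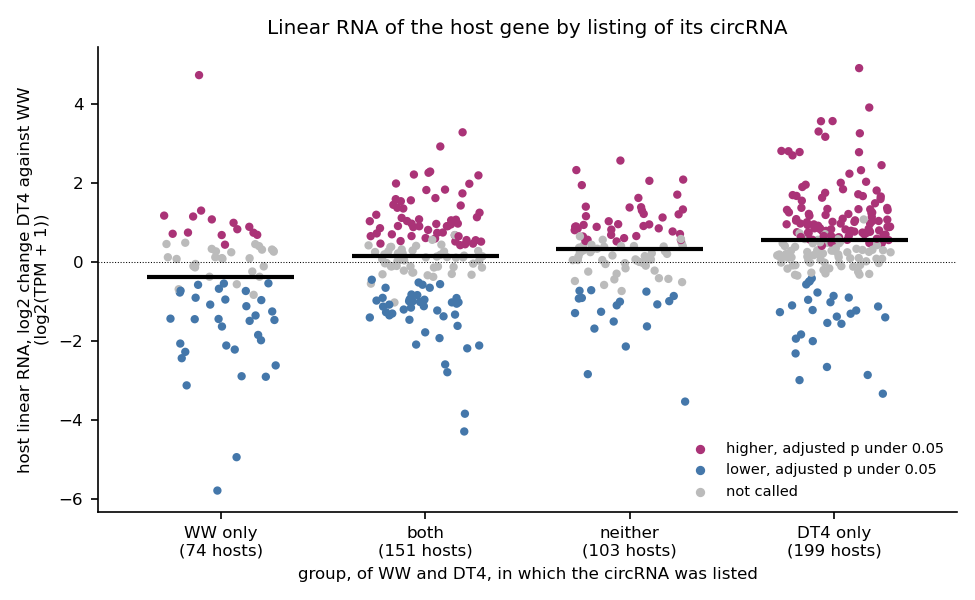
Log2 change of host linear RNA from WW to DT4 (y axis, log2(TPM + 1) scale), 1 point per tested host, grouped by whether the circRNA was listed in WW, DT4, both or neither (x axis); colours mark hosts that passed the test and black lines are medians. The median lies at -0.38 where the circRNA was listed in WW only of the pair and at 0.56 where it was listed in DT4 only of the pair.

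Among the circles listed in WW only, the highest was GRMZM2G160268_C1 (4:83199952-83200367, 415 bp, exonic, plus strand). It stood at 125 and 182 signal units in WW and at 0 in the other 6 libraries. Its host held 3102 and 3264 TPM in WW, 1949 and 2199 in DT2, 1146 and 1756 in DT3, and 564 and 322 in DT4. The host fell by 2.90 on the log2 scale from WW to DT4 (SE 0.32, adjusted p = 0.000179 in limma's test over all genes). The circle held 22 steps over both WW libraries.

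Other circles of a single group had hosts that changed less or not detectably. GRMZM2G032505_C1 (6:123020165-123020615, 450 bp) was listed in WW only, at 55.6 and 84.0 units, while its host went from 70.6 and 66.3 TPM in WW to 97.8 and 87.4 TPM in DT4 (log2 change 0.43, SE 0.14, adjusted p = 0.032 in limma's test). That host's call was lost without linear WW library 1 (0.47, adjusted p = 0.086), linear WW library 2 (0.39, adjusted p = 0.157) or linear DT4 library 1 (0.35, adjusted p = 0.103), and under rescaled TPM (0.14, adjusted p = 0.324). AC197122.3_FG003_C1 (5:15730823-15731465, 642 bp) was listed in DT4 only, at 208 and 103 units. Its host had 13.1 and 11.6 TPM in WW and 17.6 and 11.5 TPM in DT4, so the 2 groups overlapped. The chloroplast circle GRMZM5G856777_C1 was listed in DT3 only, at 133 and 108 units, with its host between 4.54 and 10.6 TPM over all 8 libraries.

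A short list of abundant circles was at 0 in some group. Of 41 short circRNAs with at least 64 steps in a group, 14 (34.1%) were at 0 in another, against 50.0% of 18 longer circRNAs of hosts with 1 circRNA and 38.3% of 81 from hosts with several. Of the 14, 6 were at 0 in DT4 only, 3 in DT3 only, 3 in WW only, 1 in DT2 only and 1 in both DT2 and DT3. The most abundant of the 14 was GRMZM2G470292_C1 (8:139421726-139422538, 812 bp, exonic, plus strand). It had 2000.3 and 2142 units in WW, 2639 and 2145 in DT2, 2878 and 3022 in DT3, and 0 in both DT4 libraries. Its host, in contrast, had 32.4 and 27.8 TPM in WW and 53.4 and 48.05 TPM in DT4, and rose by 0.74 on the log2 scale (SE 0.15, adjusted p = 0.0032 in limma's test). In DT3 the circle held 418 steps over both libraries, so it is far above the smallest value listed there.

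The next was GRMZM2G029863_C1 (9:25083388-25083644, 256 bp, exonic, minus strand), with 1347 and 966 units in WW, 1501 and 2013 in DT2, 1506 and 1260 in DT3, and 0 in DT4. Here the host went the same way, from 9.32 and 8.90 TPM in WW to 2.79 and 2.38 TPM in DT4 (log2 change -1.50, SE 0.19, adjusted p = 0.000368 in limma's test). GRMZM2G168519_C1 (8:156633060-156633620, 560 bp) was at 0 in WW and had 750 and 676 units in DT2, 590 and 529 in DT3, and 542 and 349 in DT4. Its host had 4.23 and 4.11 TPM in WW and 4.40 and 3.67 TPM in DT2, with overlapping groups. GRMZM2G176546_C1 (10:1552615-1552894, 279 bp) was at 0 at the 2 middle levels, with 347 and 294 units in WW and 611 and 865 in DT4. Its host held 46.0 to 60.7 TPM at those 2 levels and 91.2 and 97.6 TPM in DT4. Where it was listed, the circle rose by a log2 of 1.19 from WW to DT4 (SE 0.37, adjusted p = 0.0144 in limma's test), a call lost without WW library 2 (1.07), DT4 library 1 (1.44) or DT4 library 2 (0.94), and relative to the median circRNA (0.52).

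The summed signal of the short circRNAs rose with drought. It was 47438 and 46713 units in WW, 59467 and 63664 in DT2, 69512 and 66105 in DT3, and 82510 and 71361 in DT4. No 2 groups overlapped. DT2 stood 1.31-fold, DT3 1.44-fold and DT4 1.63-fold above WW by group means, and an exact permutation test of the F statistic over all arrangements of the 8 libraries gave a two-sided p = 0.00952, the smallest it can give. All circRNAs together were 1.43-fold higher in DT4 than in WW. The share of the table's signal that lay in short circRNAs was 21.7% ± 0.257 in WW, 24.7% ± 0.376 in DT2, 25.4% ± 0.823 in DT3 and 24.8% ± 0.0434 in DT4 (SD, n = 2), and the same exact permutation test gave p = 0.105 for the 4 groups.

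The rise was also present in the 105 circles that were listed everywhere. Their sum was 1.20-fold higher in DT2, 1.44-fold in DT3 and 1.66-fold in DT4 than in WW (exact permutation test, p = 0.00952, the smallest possible). The scale of the deposited signal is not stated, so a rise of the sum and a different scaling of the libraries cannot be told apart.

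Signal was concentrated in few circles. The 8 with the highest mean held 23.6% to 31.3% of the short circRNAs' signal in each library. The highest of all was GRMZM2G153017_C1 (10:145054970-145055247, 277 bp, intronic, plus strand). It had 4334 and 4131 units in WW, 3325 and 2659 in DT2, 2997 and 3036 in DT3, and 4085 and 3769 in DT4. DT2 and DT3 lay below WW and DT4, and no comparison passed the test (log2 change -0.51 at DT2, -0.49 at DT3 and -0.11 at DT4, SE 0.24). Relative to the median circRNA, with small variances raised to a floor, it was lower at DT2 (-0.80, adjusted p = 0.0324), DT3 (-1.004, adjusted p = 0.000523) and DT4 (-0.77, adjusted p = 0.00465) in limma's test; without that floor none of the 3 was called (adjusted p = 0.284, 0.116 and 0.0821). Its host rose from 18.1 and 20.0 TPM in WW to 40.3 and 41.8 TPM in DT4, a log2 change of 1.07 (SE 0.17, adjusted p = 0.00116 in limma's test).

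The second was GRMZM2G088501_C1 (6:134057624-134058012, 388 bp, exonic, minus strand), which rose at every drought level. It had 764 and 868 units in WW, 1785 and 2659 in DT2, 4886 and 4025 in DT3, and 5502 and 4893 in DT4. The libraries of each group lay above all those of the milder groups. The log2 changes from WW were 1.42, 2.44 and 2.67 (SE 0.26 each) with adjusted p = 2.83e-05, 2.93e-18 and 5.38e-22 in limma's test. Relative to the median circRNA, all 3 were called with the floor. Without it only the change at DT4 was (adjusted p = 0.350, 0.104 and 0.0465 in limma's test). The call at DT2 was lost without DT2 library 2 (log2 change 1.13, adjusted p = 0.0918).

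Of the remaining 6, the intronic GRMZM2G073988_C1 (1:210452178-210452722, 544 bp, plus strand) rose late. It had 1125 and 1302 units in WW, 1229 and 1631 in DT2, 3528 and 2507 in DT3, and 4474 and 4053 in DT4. WW and DT2 overlapped, and DT3 and DT4 lay above both. Its change at DT3 was 1.30 (SE 0.27, adjusted p = 0.000144 in limma's test), a call that was lost without DT3 library 1 (adjusted p = 0.0811) and relative to the median circRNA (0.78, adjusted p = 0.0524 with the floor and 0.282 without it). GRMZM2G175661_C1 (8:151266162-151266553, 391 bp) lay between 1092 and 1973 units in all libraries and passed no comparison. GRMZM2G178227_C1 and GRMZM2G053027_C1 passed at DT4 only, with log2 changes of 0.76 and 1.02 over WW that fell to 0.10 and 0.35, no longer called, relative to the median circRNA. Both calls were also lost without WW library 2 (0.64 and 0.91), DT4 library 1 (0.62 and 0.87) or DT4 library 2 (0.91 and 1.16).

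**Figure D3:**
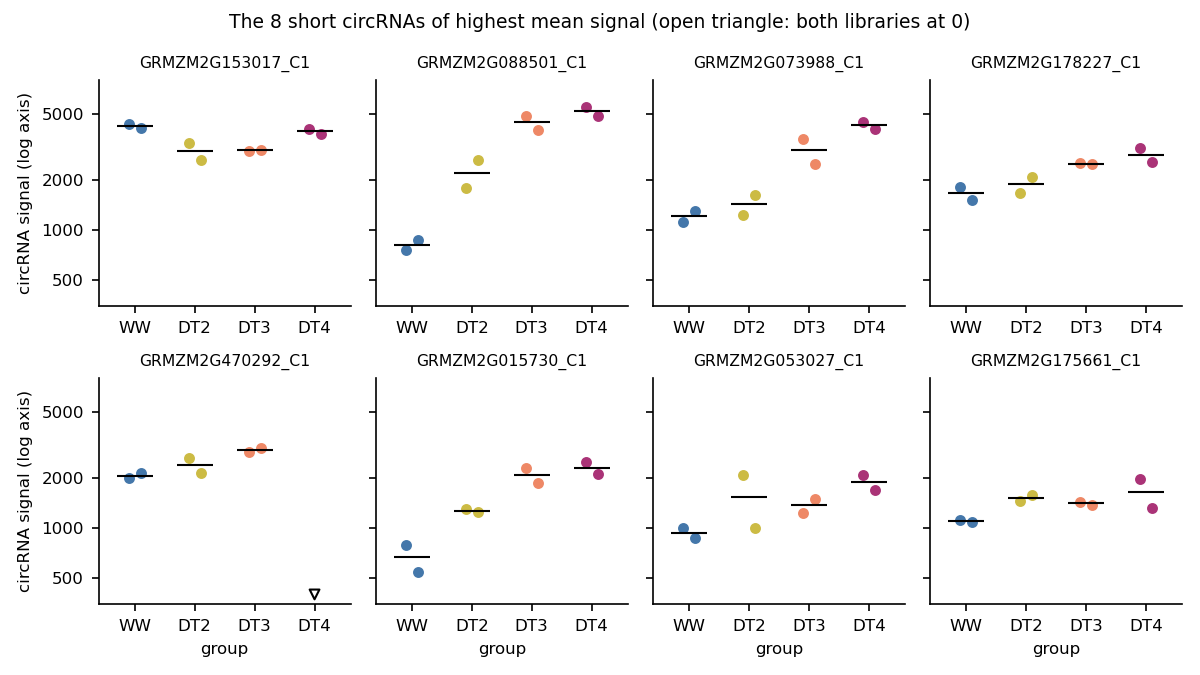
Deposited signal (log axis) of the 8 short circRNAs of highest mean, by group, with 1 point per library and a line at the group mean. GRMZM2G088501_C1 goes from 764 and 868 units in WW to 5502 and 4893 in DT4, and GRMZM2G470292_C1 is at 0 in both DT4 libraries (open triangle).

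Changes between groups were tested where a circle was listed in both groups, so a gain or loss of listing is outside this test. The test was limma's moderated test on log2 signal with all 8 circular libraries in one fit, two-sided, adjusted over all circRNAs of the table tested in that comparison. Its spread was pooled wholly over circRNAs. Among circles listed in both groups, the calls on the deposited scale were nearly all increases. At DT2, 2 of 172 tested short circRNAs rose and 0 fell, where 0.574% of all circRNAs tested were called in either direction. At an unadjusted p under 0.05, 13 were higher and 3 lower, with no share of all circRNAs given at that threshold. At DT3, 13 of 147 rose and 0 fell, which is 8.84% of those tested against 6.14% of all circRNAs (5.99% higher and 0.15% lower). At DT4, 32 of 157 rose and 6 fell, which is 24.2% of those tested against 21.2% of all circRNAs (19.1% higher and 2.1% lower). From DT2 to DT4, 11 of 208 rose and 1 fell, against 3.99% of all (3.61% higher and 0.374% lower). Over the 4 groups, 19 of the 105 circles listed everywhere differed by the F test, against 15.9% of such circRNAs of the table. Short circRNAs were thus called at a share close to that of all circRNAs. With zeros kept as low values, gains and losses of listing entered the test. Of all 539, 139 were then called higher and 65 lower at DT2, and 160 and 88 at DT3. The counts were 234 and 82 at DT4, and 184 and 101 from DT2 to DT4. A group at 0 in both libraries has no spread, so calls there follow from the listing and add no support to it. No share of all circRNAs is given for this setting.

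The direction depended on the scale. The median of all circRNAs listed in all libraries was shifted upward from WW by 0.29 (DT2), 0.52 (DT3) and 0.66 (DT4) on the log2 scale, and from DT2 to DT4 by 0.37. Relative to that median, 0 short circRNAs were called at DT2, 0 at DT3, 1 (higher) at DT4 and 0 from DT2 to DT4. A setting added after seeing the data raised each variance to at least 1% of the median variance, since circles of equal steps become almost equal after centring. With that floor, 1 short circRNA was higher and 2 were lower at DT2, 3 and 3 at DT3, 9 and 14 at DT4, and 3 and 4 from DT2 to DT4. Over all circRNAs of the table, 2 were higher and 2 lower at DT2, and 6 and 7 at DT3. At DT4 the whole table gave 24 and 48, and from DT2 to DT4 it gave 8 and 12. The median short circRNA changed by 0.19, 0.35 and 0.44 from WW on the deposited scale, against 0.28, 0.46 and 0.60 for all circRNAs tested.

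The counts changed when single libraries were left out. A group then has 1 library and a larger standard error, so a call can be lost with little change in its size. The 38 calls at DT4 became 11 without DT4 library 1, 7 without DT4 library 2 and 24 without WW library 2. The 13 at DT3 became 5 without DT3 library 1 and 6 without DT3 library 2. The 12 from DT2 to DT4 became 2 or 5 without a DT2 library (1 or 2) and 1 or 2 without a DT4 library (1 or 2). The 19 of the F test became 6 or 5 without DT4 library 1 or 2. The 2 at DT2 became 4 without WW library 1, 1 without WW library 2, 1 without DT2 library 1 and 0 without DT2 library 2.

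Called in all 3 comparisons with WW were 2 short circRNAs, GRMZM2G088501_C1 and GRMZM2G481843_C1; 10 were called in 2 comparisons and 27 in 1, of 201 tested in any. At DT3 the next after GRMZM2G088501_C1 by adjusted p was GRMZM2G015730_C1, described with its host further on. At DT4 the next was GRMZM2G073988_C1, with a log2 change of 1.81 (SE 0.27, adjusted p = 2.06e-09 in limma's test). It was also first in the comparison of DT4 with DT2, with a log2 change of 1.59 (SE 0.27, adjusted p = 1.88e-06). Leaving out any single library ended neither of these calls on GRMZM2G073988_C1. Relative to the median circRNA, its changes were 1.15 and 1.21. Both were called with the floor (adjusted p = 8.67e-05 and 0.000163) and neither without it (0.0986 and 0.199, limma's test).

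The 6 circles that fell at DT4 held 23 to 45 steps over both libraries in WW and 7 to 18 in DT4. GRMZM2G071023_C1 (4:209298488-209298813, 325 bp, intronic, plus strand) had 445 and 182 units in WW, 181 and 162 in DT2, 0 in DT3, and 55.6 and 142 in DT4. DT4 lay below WW (log2 change -1.68, SE 0.54, adjusted p = 0.0165 in limma's test). Its host fell too, from 130 and 118 TPM to 31.7 and 25.1 TPM. The call was lost without WW library 1 (-1.03, adjusted p = 0.334), without DT4 library 1 (-1.002, adjusted p = 0.34) and without DT4 library 2 (-2.36, adjusted p = 0.0553).

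GRMZM2G070723_C1 (4:3461927-3462832, 905 bp, exonic, minus strand) was the 1 short circRNA that fell from DT2 to DT4. It had 111 and 210 units in WW, 181 and 162 in DT2, 118 and 122 in DT3, and 69.5 and 25.8 in DT4, where both libraries lay below all others. The log2 change was -1.85 from WW (SE 0.64, adjusted p = 0.0269) and -2.01 from DT2 (SE 0.64, adjusted p = 0.0453) in limma's test. The first call was lost without WW library 2 (-1.39, adjusted p = 0.264) or DT4 library 2 (-1.14, adjusted p = 0.298), and the second without any of the DT2 or DT4 libraries (-1.93 and -2.10 without DT2 library 1 and 2, and -2.73 and -1.30 without DT4 library 1 and 2). Its host was called lower as well (log2 change -0.83 from WW, adjusted p = 0.00231).

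At DT4 most tested hosts changed in linear RNA. From WW to DT2, 18 of 527 tested hosts rose and 1 fell, against 2.26% of all genes called (2.04% higher and 0.221% lower). From WW to DT3, 124 rose and 39 fell, 30.9% of hosts against 27.5% of genes (20.7% higher and 6.81% lower). From WW to DT4, 212 rose and 121 fell, 63.2% of hosts against 53.3% of genes. From DT2 to DT4, 155 rose and 124 fell, 52.9% against 46.9% (26.8% higher and 20.1% lower). The hosts also had the higher median TPM given above, and the part of level in these shares was not tested. Rescaled by a trimmed mean, 11 hosts rose and 2 fell at DT2, 60 and 74 at DT3, 155 and 146 at DT4, and 140 and 148 from DT2 to DT4. At DT3 and from DT2 to DT4 the larger side thus changed. Shares of all genes on that scale are not given, so this change cannot be called particular to the hosts. The 19 calls at DT2 became 1 without WW library 1, 1 without WW library 2, 0 without DT2 library 1 and 2 without DT2 library 2. The 163 at DT3 became 71 and 58 without WW library 1 and 2, and 54 without DT3 library 1.

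Of the 32 circles that rose at DT4, 31 had a tested host, of which 18 rose, 1 fell and 12 were not called. Among all 151 tested hosts of circles listed in both groups, 38.4% rose and 28.5% fell. Of the 6 that fell, 5 had a tested host, of which 4 fell and 1 rose. Across the 151 short circRNAs with both values, the log2 changes of circle and host from WW to DT4 had a Spearman rho of 0.376, and rho was 0.145 at DT2 (166 circRNAs), 0.308 at DT3 (143) and 0.378 from DT2 to DT4 (202). These are descriptions across genes; the comparisons share libraries.

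Whether a circle moved otherwise than its host was tested as the difference of the 2 log2 changes, with the standard errors of both fits, two-sided, between unpaired circular and linear libraries. At DT4, 24 of 151 circles rose relative to their host and 8 fell, 21.2% against 16.6% of all circRNAs with a tested host (14.4% higher and 2.21% lower). From DT2 to DT4, 15 of 202 rose relative to the host and 3 fell, 8.91% against 8.58% (7.33% higher and 1.25% lower). At DT3, 3 of 143 rose and 0 fell (1.13% of all circRNAs called), with 19 at an unadjusted p under 0.05. At DT2, 1 of 166 rose and 0 fell (0.359% of all), with 14 at an unadjusted p under 0.05. The percentages of all circRNAs are at the adjusted threshold, and none is given for the unadjusted counts. With both tables taken relative to their medians, the split was 8 higher and 8 lower at DT4, 4 and 4 from DT2 to DT4, 1 and 2 at DT3, and 0 and 0 at DT2. With the floor on circRNA spreads as well, it was 15 and 11 at DT4, 9 and 7 from DT2 to DT4, 2 and 1 at DT3, and 1 and 0 at DT2. The 32 calls at DT4 became 18 without circular DT4 library 1 and 16 without circular DT4 library 2. The 18 from DT2 to DT4 became 8 and 7 without circular DT2 library 1 and 2, 2 and 5 without circular DT4 library 1 and 2, and 34 and 7 without linear DT4 library 1 and 2. The 3 at DT3 became 0 without circular WW library 2 and 1 without circular DT3 library 1. The 1 at DT2 became 2 without circular WW library 1 and 0 without circular WW library 2 or circular DT2 library 1.

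**Figure D4:**
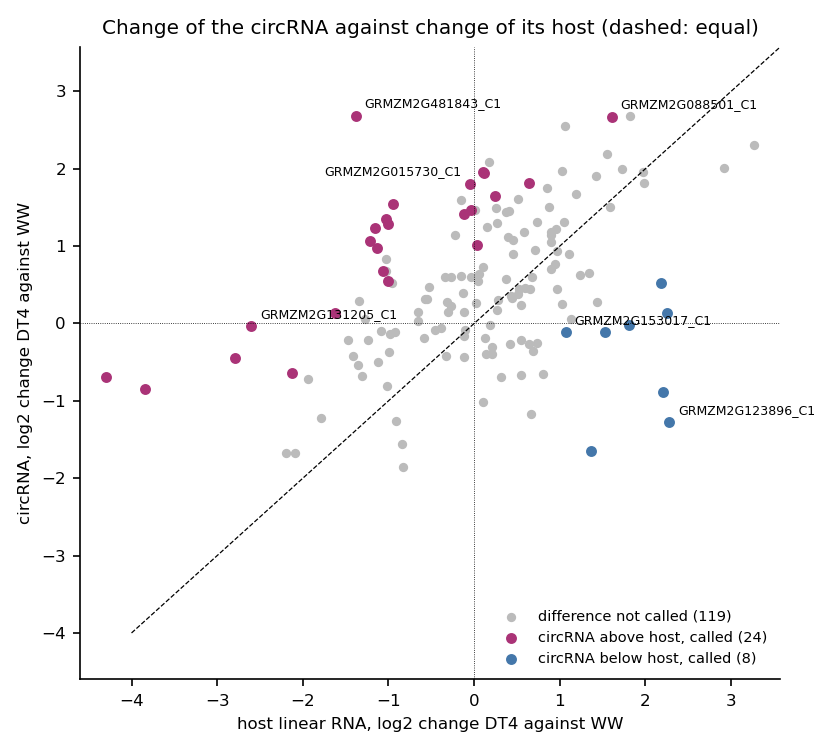
Log2 change from WW to DT4 of the circRNA (y axis) against that of its host's linear RNA (x axis) for 151 short circRNAs, with colour where the difference passed the test and a dashed line at equal change. Above the line are 24 called circRNAs, among them GRMZM2G481843_C1 with a falling host, and below it are 8, among them GRMZM2G123896_C1 with a rising host.

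GRMZM2G481843_C1 (8:14593506-14594260, 754 bp, exonic, minus strand) rose while its host fell. It had 55.6 and 28.0 units in WW, 272 and 147 in DT2, 118 and 230 in DT3, and 208 and 310 in DT4. Both WW libraries lay below all others, but they held only 4 and 2 steps. Its host had 77.4 and 74.3 TPM in WW, 66.1 and 65.7 in DT2, 51.8 and 58.4 in DT3, and 34.6 and 23.4 in DT4. At DT4 the circle rose by a log2 of 2.69 (SE 0.58, adjusted p = 0.000141) and the host fell by 1.38 (SE 0.19, adjusted p = 0.000498) in limma's tests. The difference of 4.07 (SE 0.61, adjusted p = 1.22e-08 in the test of differences) held without any single library. The circle's own call at DT4 was lost without DT4 library 2 (2.40). Relative to the median circRNA, the circle's change at DT4 was 2.02. It was called with the floor (adjusted p = 0.00809) and not without it (0.133, limma's test).

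Its calls at the milder levels were less stable. The change of 2.34 at DT2 (adjusted p = 0.0126 in limma's test) was lost without WW library 2 (adjusted p = 0.19), DT2 library 1 (0.425) or DT2 library 2 (0.0918). The change of 2.06 at DT3 (adjusted p = 0.0115) was lost without WW library 2 (0.122) or DT3 library 2 (0.32). Both were also lost in a fit of only the 4 libraries compared (adjusted p = 0.503 and 0.187) and relative to the median circRNA (2.05 and 1.55, adjusted p = 0.0522 and 0.134 with the floor).

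GRMZM2G015730_C1 (9:138400934-138401256, 322 bp, exonic, minus strand) rose while the change of its host's linear RNA did not pass the test. It had 792 and 546 units in WW, 1307 and 1249 in DT2, 2288 and 1884 in DT3, and 2501 and 2117 in DT4. Its host ran from 6.59 to 8.48 TPM over the 8 linear libraries, with all 4 groups overlapping. From WW to DT4 the circle rose by a log2 of 1.81 (SE 0.29, adjusted p = 3.53e-08 in limma's test), the host changed by -0.05 (SE 0.20), and the difference was 1.86 (SE 0.35, adjusted p = 7.27e-05 in the test of differences). Leaving out any single library ended neither call. Relative to the median circRNA, the circle's change was 1.14 at DT4 and 1.14 at DT3. Both were called with the floor (adjusted p = 0.000897 and 0.00403) and neither without it (0.0712 and 0.199, limma's test). At DT3 the circle's change was 1.66 (adjusted p = 2.93e-06) and the difference was 1.66 (adjusted p = 0.00292); the latter was lost without circular WW library 2 (1.40, adjusted p = 0.0587) or circular DT3 library 1 (1.52, adjusted p = 0.0588).

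For GRMZM2G088501_C1 circle and host rose alike at first. Its host had 4.66 and 5.96 TPM in WW, 14.8 and 16.7 in DT2, 34.5 and 34.9 in DT3, and 24.5 and 13.4 in DT4. The difference was 0.01 at DT2 and -0.06 at DT3, and 1.06 at DT4 (SE 0.37, adjusted p = 0.0441 in the test of differences). That call was lost in 7 of 8 fits that left out 1 circular or linear library of WW or DT4, with differences of 0.65 to 1.21, and was kept without linear DT4 library 1 (1.48). The called difference was also lost with log2(TPM + 0.1) for hosts. With both tables taken relative to their medians it was lost too, with or without the floor on circRNA spreads. The host was highest in DT3 and the circle in DT4.

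GRMZM2G123896_C1 (1:222644214-222644427, 213 bp, exonic, plus strand) was the 1 circle called lower at DT4 whose host was called higher. It had 431 and 196 units in WW, 0 in DT2, 443 and 176 in DT3, and 139 and 103 in DT4, and DT4 lay below the other 2 groups in which it was listed. Its host had 667 and 377 TPM in WW, 1242 and 449 in DT2, 814 and 1050 in DT3, and 2939 and 2025 in DT4. The circle fell by 1.28 on the log2 scale (SE 0.48, adjusted p = 0.0431) and the host rose by 2.28 (SE 0.48, adjusted p = 0.0043) in limma's tests. The difference of -3.56 (SE 0.68, adjusted p = 0.000247 in the test of differences) held without any single library. The circle's own call was lost without WW library 1 (-0.71, adjusted p = 0.481), DT4 library 1 (-1.49, adjusted p = 0.155) or DT4 library 2 (-1.06, adjusted p = 0.286).

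**Figure D5:**
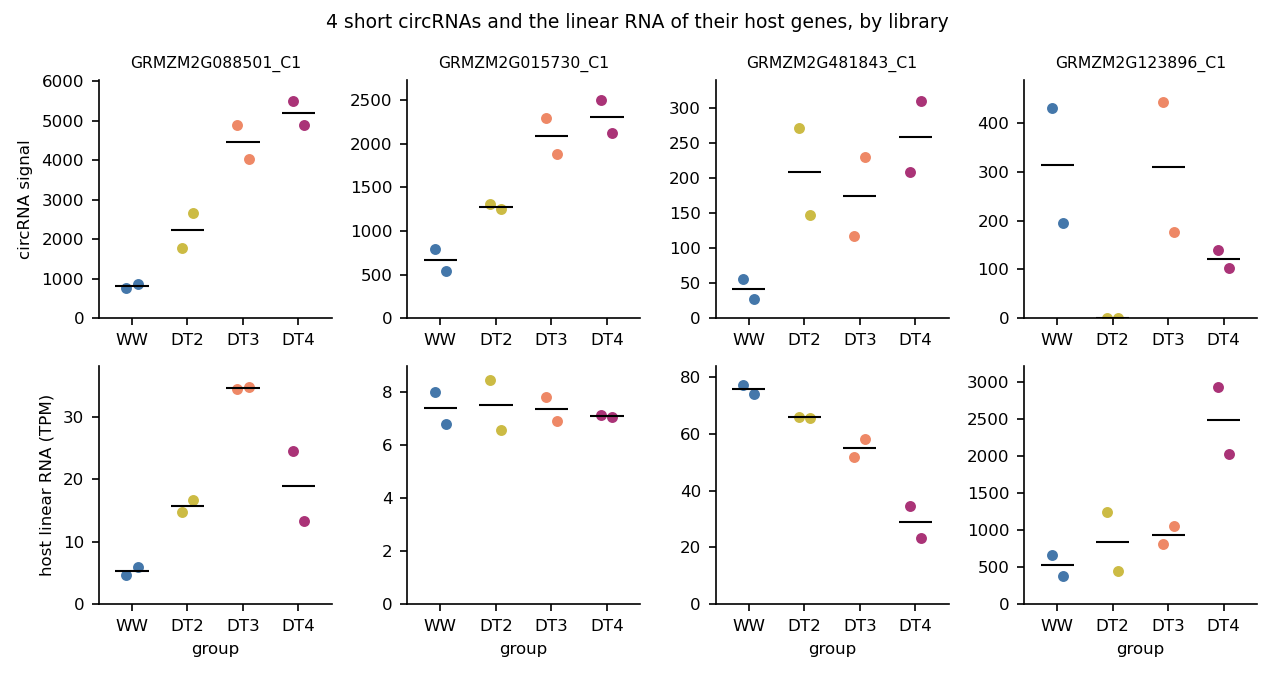
Deposited circRNA signal (upper row) and host linear RNA in TPM (lower row) by group for 4 short circRNAs, with 1 point per library and a line at the group mean; each axis starts at 0. For GRMZM2G481843_C1 the circle goes from 55.6 and 28.0 units in WW to 208 and 310 in DT4, while its host goes from 77.4 and 74.3 to 34.6 and 23.4 TPM.

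In other circles the host moved and the circle did not pass the test. GRMZM2G131205_C1 (1:211570194-211570546, 352 bp, exonic, plus strand) had 458 and 994 units in WW, 893 and 1087 in DT2, 1299 and 867 in DT3, and 959 and 452 in DT4, with WW and DT4 overlapping. Its host went from 238 and 329 TPM in WW to 67.3 and 30.4 TPM in DT4 (log2 change -2.60, SE 0.33, adjusted p = 0.000333 in limma's test). The difference was 2.56 (SE 0.46, adjusted p = 0.000141 in the test of differences). That call was lost with both tables taken relative to their medians (adjusted p = 0.0723 in the same test), and kept there with the floor on circRNA spreads.

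GRMZM2G153017_C1, the circle of highest level, was on the other side, with a difference of -1.18 at DT4 (SE 0.30, adjusted p = 0.00269 in the test of differences), where the host rose and the circle was not called. From DT2 to DT4 the difference of smallest adjusted p belonged to GRMZM2G102499_C1 (2:41933996-41934855, 859 bp, exonic, minus strand). The circle had 323 and 338 units in DT2 and 584 and 529 in DT4, its host 527 and 425 TPM in DT2 and 230 and 215 in DT4. The difference was 1.84 (SE 0.42, adjusted p = 0.00116).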

How the data were processed

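Per the file headers, the authors deposited linear RNA as TPM per transcript and circRNAs as a signal per library, with a length, type, host and location; no source used here states the scale of that signal, the counting or its strand setting. The submitters' processing notes name BWA, RSEM, edgeR and B73 RefGen_v3, with no version or role. Library totals of reads are not known, which leaves counting error of single values without an interval. Columns carry the group and a number and titles the group and a letter, so libraries were assigned to groups only; "library 1" and "library 2" are column numbers.

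Transcripts were summed to genes (63235 to 39469). The 22216 genes that reached 1 TPM in 2 libraries entered the test as log2(TPM + 1), a scale that understates changes of low genes, and circRNAs as log2 of the deposited signal with 0 as missing, in limma 3.58.1 (R 4.3.3; trend on; prior degrees of freedom 4.27 for genes, infinite for circRNAs). The difference of circRNA and host used Satterthwaite degrees of freedom. Adjustment followed Benjamini and Hochberg over the whole table, and an adjusted p under 0.05 was a call. Tests were also run on simulated data with known library scaling, and the outcome is not given here. Figures used matplotlib 3.10.9 (Python 3.11.15).

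The circRNAs, comparisons and rules were chosen with earlier results of these data known. Named were the 8 of highest mean, the extremes of length, and those listed in 1 group. Called changes were named by smallest adjusted p (at most 2 per direction printed, since the IDs have no names). Called differences from the host were named by smallest adjusted p as well. The abundant circRNAs at 0 in some group were picked after their values were seen. Host function lists were not used, since no annotation of the hosts is at hand. A replicate block, centring, pseudocounts, filters and left-out libraries were the alternatives.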

Additional observations from a re-analysis of the deposited data

How the results depend on the processing

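Counts of called short circRNAs moved most with the reading of 0. With zeros kept and a pseudocount of the smallest value, 204, 248 and 316 were called at DT2, DT3 and DT4, 285 from DT2 to DT4, and 456 over the groups. Those counts include gains and losses of listing, where paired zeros have no spread. With libraries centred on their median circRNA, 0, 0, 1, 0 and 0 were called in the same order. Under a floor on the spreads, chosen after seeing the data like the restriction to circRNAs listed in all 8 libraries, centring gave 6 at DT3, 23 at DT4 and 7 from DT2 to DT4. The restriction gave 1 at DT2, 23 at DT4 and 4 from DT2 to DT4. A fit of only the 4 libraries compared gave 1, 3 and 25 calls against WW, and a pseudocount on listed circRNAs gave 1 at DT2. Without the TPM filter 6 hosts were called at DT2. With both tables centred, the calls of circle against host were 0 at DT2, 16 at DT4 and 8 from DT2 to DT4. The cause of these shifts was not tested.

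Column numbers showed no clear shared effect: deviations of equal numbers correlated at -0.093 to 0.082 (circular) and -0.111 to 0.113 (linear). Between circular and linear libraries of a group they correlated at -0.016 to 0.070. Such values cannot show whether equal numbers come from the same RNA. With the number as a replicate block, 2, 11, 34 and 9 short circRNAs and 17, 166, 338 and 284 hosts were called, and 0, 1, 25 and 6 circles differed from the host (at DT2, DT3, DT4 and DT4 against DT2). Of the calls described, the block also ended those on GRMZM2G102499_C1 against its host (adjusted p = 0.0598) and on GRMZM2G070723_C1 (0.0781) from DT2 to DT4, and on GRMZM2G123896_C1 at DT4 (0.06004).

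Leaving out 1 library at a time gave 0 to 4, 5 to 10, 7 to 31 and 1 to 5 called short circRNAs in that order, and 5 to 19 over the groups. It gave 0 to 2, 54 to 132, 247 to 301 and 215 to 270 called hosts, and 0 to 2, 0 to 4, 16 to 42 and 2 to 34 circles against hosts. The lone library of a group was then assumed to vary like the others. The summed signal stayed 1.52 to 1.75-fold higher in DT4 than in WW. The share ratio stayed at 1.14 to 1.16, and the exact permutation test of the share passed without DT3 library 2 (ratio 1.15, p = 0.0286).

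Of 1057 recomputed values for 88 named results, 826 kept their direction and side of the threshold, 186 lost a call, 26 gained one and 19 changed sign, all of the 19 for changes that were not called. Centring gave -0.063 for GRMZM2G073988_C1, -0.12 for GRMZM2G178227_C1 and -0.088 for GRMZM2G470292_C1 at DT2. It gave -0.0045 for GRMZM2G470292_C1 at DT3, and -0.16, -0.12 and -0.28 for GRMZM2G175661_C1 at DT3, DT4 and DT4 against DT2, with the last at -0.19 to 0.38 when 1 library was left out. With 1 library left out, GRMZM2G131205_C1 ran from -0.60 to 0.52 at DT4 (0.52 and 0.51 without WW library 2 and DT4 library 2), and from DT2 to DT4 GRMZM2G053027_C1 ran from -0.15 to 0.92 and GRMZM2G020281_C1 from -1.13 to 0.050, each with its sign changed without DT2 library 2.

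The planned edgeR test was not run, since the values do not give whole reads. With 2 libraries per group and a minimum below which nothing is listed, small changes of weakly listed circles were not detectable.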
